A study of Mus musculus with 27 samples.

Results

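Cholesterol synthesis, oxidation and efflux were followed through 8 genes of mouse bone marrow-derived macrophages (BMDM): Hmgcs1, Idi1, Sqle, Insig1, Srebf2, Ch25h, Abca1 and Abcg1. The genes were chosen by name, and the array carried 10 probes with these names among the 55681 probes with deposited values. Total RNA from 27 samples was hybridized to 1-color Agilent arrays, and 25 arrays had deposited values. The cells came from female C57BL/6 mice aged 6 to 8 weeks and were grown in L929-conditioned medium, a source of macrophage colony-stimulating factor. Naive cells received no ligand, acute cells received 1 ligand for 4 h, and re-stimulated cells received the ligand for 24 h, a wash and fresh medium, and then the same ligand for 4 h. The ligands were LPS at 100 ng/ml (a ligand of TLR4), CpG DNA (TLR9), Pam3CSK4 at 100 ng/ml (TLR2) and Poly(I:C) at 10 µg/ml (TLR3). The sample labels gave CpG at 100 µM, and the dose in the methods differed. Each condition had 3 deposited arrays, except re-stimulated LPS and acute Pam3CSK4, which had 2 each. The methods described a replicate in one place as a single mouse and in another as a pool of mice, so the p-values measure the spread between these samples.

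Macrophages make cholesterol through the mevalonate pathway, which the transcription factor SREBP-2, the product of Srebf2, switches on when membrane sterol is low. INSIG proteins hold the SREBP precursor in the endoplasmic reticulum when sterol is plentiful. Ch25h makes 25-hydroxycholesterol, an oxysterol that blocks SREBP processing and is known as a product of interferon-treated macrophages. Excess cholesterol leaves the cell through the transporters ABCA1 and ABCG1, whose genes are targets of the sterol-sensing nuclear receptor LXR.

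The label of the cells was checked against marker genes. All 7 macrophage markers (Adgre1, Cd68, Csf1r, Itgam, Lyz2, Cd14 and Mertk) were well above background on all 25 arrays. They were not level between groups. Against naive cells, Csf1r, Lyz2 and Cd68 fell and Cd14 and Mertk rose with acute LPS. Itgam, Lyz2 and Mertk fell and Cd14 rose in re-stimulated Poly(I:C) cells, where the median change of the 7 markers was -1.0. Mertk fell and Cd14 rose in the other re-stimulated groups too, and Cd68 fell with CpG and Pam3CSK4. Re-stimulated Pam3CSK4 cells were higher than re-stimulated Poly(I:C) cells in 3 of the 7. Of the T cell markers, Cd3e was well above background on 25 arrays, Cd2 on 5 and Cd3d on 1. The B cell marker Ms4a1 was well above background on 1 array and Cd79a on 25, and the dendritic cell marker Xcr1 on 0. Neutrophil markers were measurable, with S100a8 as their most abundant gene. Their summed level was 14122 and 24006 on the first and second naive arrays but 1424 on the third. It was also lowest on the third array of acute CpG (34860, 67291 and 3074), acute Pam3CSK4 (38138 and 2936), acute Poly(I:C) (23769, 52946 and 1934) and re-stimulated Poly(I:C) cells (19298, 36349 and 5151), which share a slide with the third naive array. On that slide the third re-stimulated CpG and Pam3CSK4 arrays, at 30818 and 53323, were the highest of their groups. The summed level lay between 444 and 611 on the 3 acute LPS arrays. The dendritic cell marker Zbtb46 led its list on the acute LPS arrays, where the summed level of that list was 777 to 1651 against 23.1 to 53.7 in naive cells. The summed level was 179 to 241 with acute CpG, 107 to 337 with acute Poly(I:C) and 47.7 to 178 in the re-stimulated groups. Zbtb46 rose against naive cells with acute LPS (6.23), CpG (3.47) and Poly(I:C) (3.46) and in re-stimulated LPS (1.67), CpG (2.24) and Poly(I:C) cells (2.81), and Flt3, the other dendritic cell marker tested, was called in none of these. The fibroblast marker Dcn led its list on all arrays but the third naive one and rose against naive cells in all 4 re-stimulated groups, by 4.23 with LPS, 1.73 with CpG, 2.22 with Pam3CSK4 and 3.02 with Poly(I:C). The summed level of that list was 672 and 443 on the re-stimulated LPS arrays and 156 to 396 on the re-stimulated Poly(I:C) arrays. Col1a1, a defining fibroblast gene, was well above background on 4 of 25 arrays. The part of these cells in the results below was not tested, and in bulk RNA fewer cells of a type and less RNA per cell cannot be told apart.

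Features of the slides and of 1 array bear on every comparison. The naive, CpG, Pam3CSK4, Poly(I:C) and re-stimulated LPS arrays shared 3 slides, 1 slide for each replicate number, whereas the 3 acute LPS arrays lay on 3 other slides scanned on other days. Slide and stimulus cannot be told apart in any comparison with acute LPS. The third naive array also stood apart: 74.9% of its probes were well above background, against 43.1% to 55.0% on the other arrays with deposited values.

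A probe was called when its adjusted p-value was below 0.05 and its change was at least 1.5-fold, and 30814 probes were tested. Among the 8 genes, each by its brightest probe, 2 were called higher after acute LPS, beside 33.2% of all tested probes called in either direction. In acute CpG, Pam3CSK4 and Poly(I:C) cells 1 gene each was called higher, beside 15.2%, 5.21% and 13.4% of tested probes. By direction, 16.7% of probes were higher and 16.5% lower with acute LPS, 7.39% and 7.78% with CpG, 2.76% and 2.45% with Pam3CSK4, and 7.03% and 6.34% with Poly(I:C). Re-stimulated against acute cells, 2 genes were called lower with LPS, 1 with CpG, 1 with Pam3CSK4 and 0 with Poly(I:C), beside 29.9%, 5.54%, 2.39% and 11.7% of tested probes. The 1 gene with CpG and with Pam3CSK4 was Srebf2 by its brighter probe, which also enters the counts against naive cells below and which a second probe of Srebf2 did not follow. The probes called in that comparison were 15.6% higher and 14.3% lower with LPS, 3.01% and 2.53% with CpG, 1.10% and 1.29% with Pam3CSK4, and 6.54% and 5.12% with Poly(I:C). The 0 for Poly(I:C) held under all 36 alternative analyses, and 2 of the 8 genes had an unadjusted p below 0.05 there in limma's test. Re-stimulated against naive cells, 2 genes were called with LPS, 4 with CpG, 5 with Pam3CSK4 and 2 with Poly(I:C), beside 16.3%, 19.3%, 15.9% and 18.7%. Here 8.44% of probes were higher and 7.82% lower with LPS, 9.89% and 9.40% with CpG, 7.97% and 7.98% with Pam3CSK4, and 9.45% and 9.21% with Poly(I:C). These comparisons share the naive arrays. The shares of the 8 genes called were near the background in most comparisons, and the description below rests on the genes and not on their number.

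Ch25h had the largest changes of the 8 genes. Its log2 values were 5.75, 4.93 and 7.82 in naive cells. They were 12.92, 12.66 and 11.81 after acute LPS, 11.62, 11.54 and 12.46 after acute CpG, 11.00 and 9.69 after acute Pam3CSK4, and 12.92, 13.27 and 11.64 after acute Poly(I:C). Each acute array with deposited values lay above each naive array. Ch25h rose 78.7-fold with acute LPS (log2 change 6.30, SE 0.803, adjusted p = 9.55e-06), 52.3-fold with CpG (5.71, SE 0.803, adjusted p = 0.000112), 18.1-fold with Pam3CSK4 (4.18, SE 0.898, adjusted p = 0.00954) and 87.3-fold with Poly(I:C) (6.45, SE 0.803, adjusted p = 3.22e-05). The Pam3CSK4 call was lost without naive replicate 2, without the first acute Pam3CSK4 array and when each pair of groups was fitted alone. It was also lost when all 27 arrays were normalized together (2.78, adjusted p = 0.18): the second acute Pam3CSK4 array, without deposited values, then read 6.68 for Ch25h, inside the naive range of 5.17 to 7.99. Without naive replicate 3 the acute changes of Ch25h were 7.13, 6.54, 5.01 and 7.27 in the same order.

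After re-stimulation the Ch25h values were 10.13 and 7.62 with LPS, 12.57, 10.95 and 13.59 with CpG, 9.89, 10.08 and 11.37 with Pam3CSK4, and 13.82, 12.41 and 14.16 with Poly(I:C). Both re-stimulated LPS arrays lay below all acute LPS arrays, and the fall was 12.1-fold (log2 change -3.59, SE 0.898, adjusted p = 0.00516). It was not called without the second re-stimulated LPS array, nor with all 27 arrays normalized together (-2.45, adjusted p = 0.14), where the third re-stimulated LPS array, without deposited values, read 12.06 and lay within the acute LPS range of 11.84 to 12.92. With CpG, Pam3CSK4 and Poly(I:C) the re-stimulated and acute arrays overlapped, and the log2 changes were 0.50 (adjusted p = 0.80), 0.10 (adjusted p = 0.98) and 0.85 (adjusted p = 0.55).

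Against naive cells, Ch25h stayed 73.7-fold higher in re-stimulated CpG cells, 19.4-fold higher with Pam3CSK4 and 157-fold higher with Poly(I:C), with adjusted p of 4.91e-05, 0.00137 and 8.02e-06. Re-stimulated LPS cells were 6.53-fold higher (log2 change 2.71, SE 0.898, adjusted p = 0.0449), although the lower of these arrays, at 7.62, lay under the third naive array. On the shared slides the LPS differences from naive were 2.69 and 4.38, and the call held in 19 of 36 alternative analyses and was lost without any one of 12 arrays.

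Ligands were also set against each other directly, in 6 pairs of re-stimulated groups. Ch25h was lower in re-stimulated LPS than in re-stimulated Poly(I:C) cells (log2 difference -4.59, SE 0.898, adjusted p = 0.0139). The background of that pair was 1.49% of tested probes. Ch25h was also lower with Pam3CSK4 than with Poly(I:C) (-3.02, SE 0.803, adjusted p = 0.0208, background 10.1%). The LPS call was lost without LPS replicate 2 or Poly(I:C) replicate 1. The Pam3CSK4 call was lost without Pam3CSK4 replicate 1 or 2 or Poly(I:C) replicate 1 or 3. Both calls were also lost when the arrays without deposited values were normalized with the others. There the third re-stimulated LPS array read 12.06 for Ch25h. The LPS call was lost as well when the pair was fitted alone. LPS and CpG differed by -3.50 with a 95% interval of -5.38 to -1.61, which was not called (adjusted p = 0.20). The background of that pair was 0.0227%, and those of LPS against Pam3CSK4 and CpG against Pam3CSK4, in which no member was called, were 1.06% and 0.110%. Among acute groups on shared slides (CpG, Pam3CSK4 and Poly(I:C), 3 pairs), 0 of 24 tests on the 8 genes were called, beside 0.0292% (CpG against Pam3CSK4), 3.92% (CpG against Poly(I:C)) and 6.48% (Pam3CSK4 against Poly(I:C)) of tested probes. In limma's test without adjustment 1547 to 5473 of the 30814 probes had p below 0.05 in these pairs. Acute Pam3CSK4 cells had less Ch25h signal than acute Poly(I:C) cells by 2.27 on the log2 scale, with an interval of 0.39 to 4.15 and adjusted p = 0.17.

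**Figure D1:**
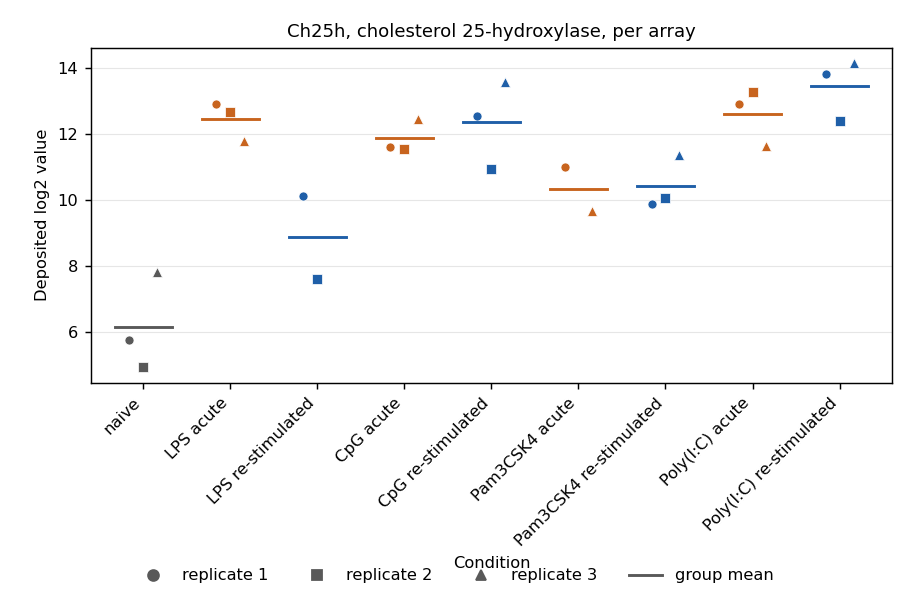
Deposited log2 value of Ch25h on each of the 25 arrays by condition, with replicate numbers as symbols and the group mean as a bar. Naive arrays lie between 4.93 and 7.82, the acute arrays between 9.69 and 13.27, and the re-stimulated LPS arrays, at 10.13 and 7.62, below those of acute LPS.

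Type I interferon targets were set beside Ch25h, because Ch25h is itself known as an interferon-stimulated gene. Of 10 targets, among them Ifnb1, Isg15, Ifit1, Ifit3, Mx1, Irf7, Rsad2, Usp18 and Oasl1, 10 rose with acute LPS and 10 with acute Poly(I:C), with median log2 changes of 4.81 and 5.05. The median over all tested probes was -0.01 with LPS and -0.08 with Poly(I:C), where 16.7% and 7.03% of them were called higher. Acute CpG raised 7 of the 10, beside 7.39% of tested probes. Acute Pam3CSK4 raised 0 of the 10 by limma's test, beside 2.76% of tested probes, with a median change of 0.00, although Ch25h rose in these same arrays. Ifnb1, which encodes interferon beta, was 2.56 higher with Pam3CSK4 on the log2 scale, which was not called. In re-stimulated LPS cells 7 of the 10 fell against acute LPS and 1, Irf7, rose, beside 14.3% and 15.6% of tested probes. Against naive cells 8 of the 10 were higher in re-stimulated LPS cells (median 2.90), a count of 3 to 8 over the alternative analyses. With CpG 8 were higher, with Poly(I:C) 10, and with Pam3CSK4 0 were higher and 1 was lower. The shares of probes called higher were 8.44% (LPS), 9.89% (CpG), 9.45% (Poly(I:C)) and 7.97% (Pam3CSK4). In re-stimulated Poly(I:C) cells 1, Irf7, rose and 0 fell against acute cells, beside 6.54% and 5.12% of tested probes, with a median change of -0.53. Over the 36 alternative analyses the count that fell ran from 0 to 4.

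The other oxysterol genes did not follow Ch25h. Of the 8 genes listed as oxysterol enzymes and receptor, 7 were tested and Cyp7b1 was not well above background. Gpr183, the receptor through which oxysterols guide immune cells, fell with all 4 acute ligands. Its mean was 6.55 ± 1.58 (SD, n = 3) in naive cells, and it was not well above background on any acute array, so the size of these falls is uncertain. By the measured means it was 11.5-fold lower with LPS (adjusted p = 0.000318), 7.82-fold with CpG (adjusted p = 0.00376), 7.08-fold with Pam3CSK4 (adjusted p = 0.0267) and 4.91-fold with Poly(I:C) (adjusted p = 0.021). Raising each acute value to at least the lowest value among probes well above background on its array left these folds unchanged. They are therefore measured differences and not strict bounds. Cyp27a1, the mitochondrial sterol 27-hydroxylase, fell in all 4 re-stimulated groups against naive cells, with log2 changes of -2.41 with LPS, -2.80 with CpG, -2.46 with Pam3CSK4 and -2.81 with Poly(I:C). Both genes' calls varied with the analysis. The Gpr183 calls with acute Pam3CSK4 and Poly(I:C) were each made in 30 of 36 alternative analyses and were lost without naive replicate 1 or 2, without either acute Pam3CSK4 array, or without acute Poly(I:C) replicate 1 or 3. The Cyp27a1 calls were made in 30 (LPS), 35 (CpG), 33 (Pam3CSK4) and 35 (Poly(I:C)), that with LPS being lost without naive replicate 1 or 2 or either re-stimulated LPS array and that with Pam3CSK4 without naive replicate 2. Cyp39a1, an oxysterol 7-alpha-hydroxylase, fell by 1.82 in re-stimulated CpG cells, a call made in 15 of 36. Cyp46a1 and Sult2b1 were called in no comparison with naive cells.

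The synthesis genes are shown first by their promoters, because Hmgcs1, Idi1 and Insig1 are known SREBP targets. The 250 bases before the RefSeq start in build GRCm38.p6 were available for 6 of the 8 genes, and 5 are printed here, with motif matches in capitals: the sterol regulatory element (TCACNCCAC) and the NF-Y box (CCAAT, on the other strand ATTGG). No printed matches overlap.
Hmgcs1, chr13:119690101-119690350, plus strand: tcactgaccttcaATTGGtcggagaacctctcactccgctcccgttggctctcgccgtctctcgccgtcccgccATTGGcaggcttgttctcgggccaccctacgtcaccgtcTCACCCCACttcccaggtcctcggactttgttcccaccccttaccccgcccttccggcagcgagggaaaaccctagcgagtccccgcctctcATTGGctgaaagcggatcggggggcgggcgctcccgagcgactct
Idi1, chr13:8885356-8885605, plus strand: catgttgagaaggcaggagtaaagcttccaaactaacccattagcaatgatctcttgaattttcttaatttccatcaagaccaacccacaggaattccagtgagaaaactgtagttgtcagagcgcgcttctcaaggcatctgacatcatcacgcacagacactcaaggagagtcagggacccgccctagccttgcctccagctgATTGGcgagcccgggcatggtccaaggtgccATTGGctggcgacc
Insig1, chr5:28071162-28071411, plus strand: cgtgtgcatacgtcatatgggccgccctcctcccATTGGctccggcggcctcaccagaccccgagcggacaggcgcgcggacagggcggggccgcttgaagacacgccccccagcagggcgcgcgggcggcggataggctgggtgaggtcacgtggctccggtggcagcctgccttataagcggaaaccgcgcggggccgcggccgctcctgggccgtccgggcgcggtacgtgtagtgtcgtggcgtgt
Srebf2, chr15:82147019-82147268, plus strand: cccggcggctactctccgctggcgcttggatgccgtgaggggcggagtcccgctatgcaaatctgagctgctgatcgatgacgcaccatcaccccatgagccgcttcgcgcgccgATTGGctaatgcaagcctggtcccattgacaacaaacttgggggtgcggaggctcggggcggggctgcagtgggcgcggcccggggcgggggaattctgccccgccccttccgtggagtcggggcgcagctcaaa
Ch25h, chr19:34475149-34475398, minus strand: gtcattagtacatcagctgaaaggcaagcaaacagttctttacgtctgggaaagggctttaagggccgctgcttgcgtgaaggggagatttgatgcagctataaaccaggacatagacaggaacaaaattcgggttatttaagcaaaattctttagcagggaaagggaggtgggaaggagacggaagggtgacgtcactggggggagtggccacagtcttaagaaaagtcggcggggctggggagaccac
Hmgcs1 held 1 sterol regulatory element, 137 to 129 bases before the start, and 3 NF-Y boxes. Idi1 held 2 NF-Y boxes, and Insig1 and Srebf2 held 1 each. In all 32851 RefSeq windows of this length, searched on both strands, 1.05% held the sterol regulatory element and 33.8% an NF-Y box. The interferon-stimulated response element (2.98% of windows), an NF-kB site (4.65%) and the LXR element (0.116%) were also searched. None of these 3 motifs was found in the windows of the 6 genes, which says only that these letters are not in these stretches.

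Hmgcs1 makes HMG-CoA, an early intermediate of the pathway. Its log2 values were 12.54, 12.38 and 12.79 in naive cells and 11.79, 11.20 and 11.49 in re-stimulated Poly(I:C) cells. The re-stimulated Poly(I:C) arrays were lower than all naive arrays, and Hmgcs1 fell 2.11-fold (log2 change -1.08, SE 0.305, adjusted p = 0.0173). The adjusted p was 0.0577 without naive replicate 3, and the call was also lost without the second re-stimulated Poly(I:C) array. The change was -0.14 under scaling to equal medians, -0.79 with the processed signal and -1.05 with all 27 arrays, none of them called. With the mean of both Hmgcs1 probes, the other of which was well above background on 1 of 25 arrays, it was -0.63 and not called. Hmgcs1 read 12.77 and 12.54 in re-stimulated LPS cells, 12.69, 13.58 and 12.32 with CpG, and 12.99, 13.57 and 12.61 with Pam3CSK4, ranges that overlap the naive one. It was called against naive in none of the 7 other comparisons. Under scaling to equal medians the CpG change of Hmgcs1 was called (1.53, adjusted p = 0.0122, against 0.29 without it), beside a median of 0.77 over all probes, and the mean of its probes was called with Pam3CSK4 (1.23, adjusted p = 0.02).

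Idi1 makes dimethylallyl diphosphate, a building block of all isoprenoids. Its values were 9.96, 9.52 and 11.10 in naive cells, 11.73, 12.09 and 11.04 in re-stimulated CpG cells, and 11.83, 12.22 and 11.41 in re-stimulated Pam3CSK4 cells. The third CpG array lay just under the third naive array, while all Pam3CSK4 arrays lay above the naive ones. Idi1 rose 2.69-fold with CpG (log2 change 1.43, SE 0.493, adjusted p = 0.0470) and 3.08-fold with Pam3CSK4 (1.62, SE 0.493, adjusted p = 0.0297). On the 3 shared slides the CpG differences ran from -0.06 to 2.57 and the Pam3CSK4 differences from 0.30 to 2.70, with the lowest of each on the slide of replicate 3. Without naive replicate 3 the changes were 1.88 and 2.08, and the acute LPS change of Idi1 was also called (1.43, adjusted p = 0.037 against 0.133 with that array). The Pam3CSK4 call was lost without naive replicate 1 or 2 or Pam3CSK4 replicate 1 or 2. The CpG call was lost without any one of 14 arrays and held in 19 of 36 alternative analyses. In re-stimulated Poly(I:C) cells Idi1 read 9.51, 8.75 and 10.14, and its change of -0.73 against naive cells was not called (adjusted p = 0.33).

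Sqle makes squalene epoxide, the first oxygenation step of the sterol branch. Its values were 11.10, 10.26 and 11.83 in naive cells and 12.58, 12.64 and 12.46 in re-stimulated Pam3CSK4 cells. The Pam3CSK4 arrays were the tightest group and lay above all naive arrays, and Sqle rose 2.82-fold (log2 change 1.49, SE 0.482, adjusted p = 0.0398). This call was lost when naive replicate 1 or 2 or any one of the 3 re-stimulated Pam3CSK4 arrays was left out. The re-stimulated CpG values of 12.12, 12.31 and 11.83 overlapped the naive ones by a narrow margin, and the change of 1.02 was not called (adjusted p = 0.14). It was called under scaling to equal medians (2.11, adjusted p = 0.0035), which also raised the median of all probes, as given with Hmgcs1. It was called with array weights too (1.53, adjusted p = 0.0034). Re-stimulated Poly(I:C) cells read 10.23, 9.47 and 10.51, a change of -0.99 that was not called (adjusted p = 0.16).

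The clearest differences among the synthesis genes lay between re-stimulated ligands. Sqle was higher with Pam3CSK4 than with Poly(I:C) by 2.49 (SE 0.482, adjusted p = 0.00226) and higher with CpG than with Poly(I:C) by 2.01 (SE 0.482, adjusted p = 0.0153). Idi1 was higher by 2.35 with Pam3CSK4 (adjusted p = 0.00416) and by 2.15 with CpG (adjusted p = 0.0116). Hmgcs1 was higher by 1.56 with Pam3CSK4 (adjusted p = 0.00242) and by 1.37 with CpG (adjusted p = 0.00986). In each of these 6 cases the groups did not overlap and the difference had the same sign on all 3 slides. The background was 10.1% of tested probes for Pam3CSK4 against Poly(I:C) and 6.89% for CpG against Poly(I:C). The Sqle difference between Pam3CSK4 and Poly(I:C) was called in 36 of 36 alternative analyses. The other 5 calls were lost with all 27 arrays normalized together, that of Hmgcs1 with Pam3CSK4 also under scaling to equal medians, those of Hmgcs1 and Idi1 with CpG also when the pair was fitted alone, and that of Hmgcs1 with CpG also with the mean of its probes. The 3 CpG calls were lost without CpG replicate 2 or Poly(I:C) replicate 2, that of Idi1 also without Poly(I:C) replicate 1, and that of Sqle also without replicate 1 of either group. CpG and Pam3CSK4 differed in Sqle by -0.47 with a 95% interval of -1.48 to 0.54. LPS lay between: Sqle was higher with LPS than with Poly(I:C) by 1.35 (adjusted p = 0.30, interval 0.22 to 2.48), which was not called.

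**Figure D2:**
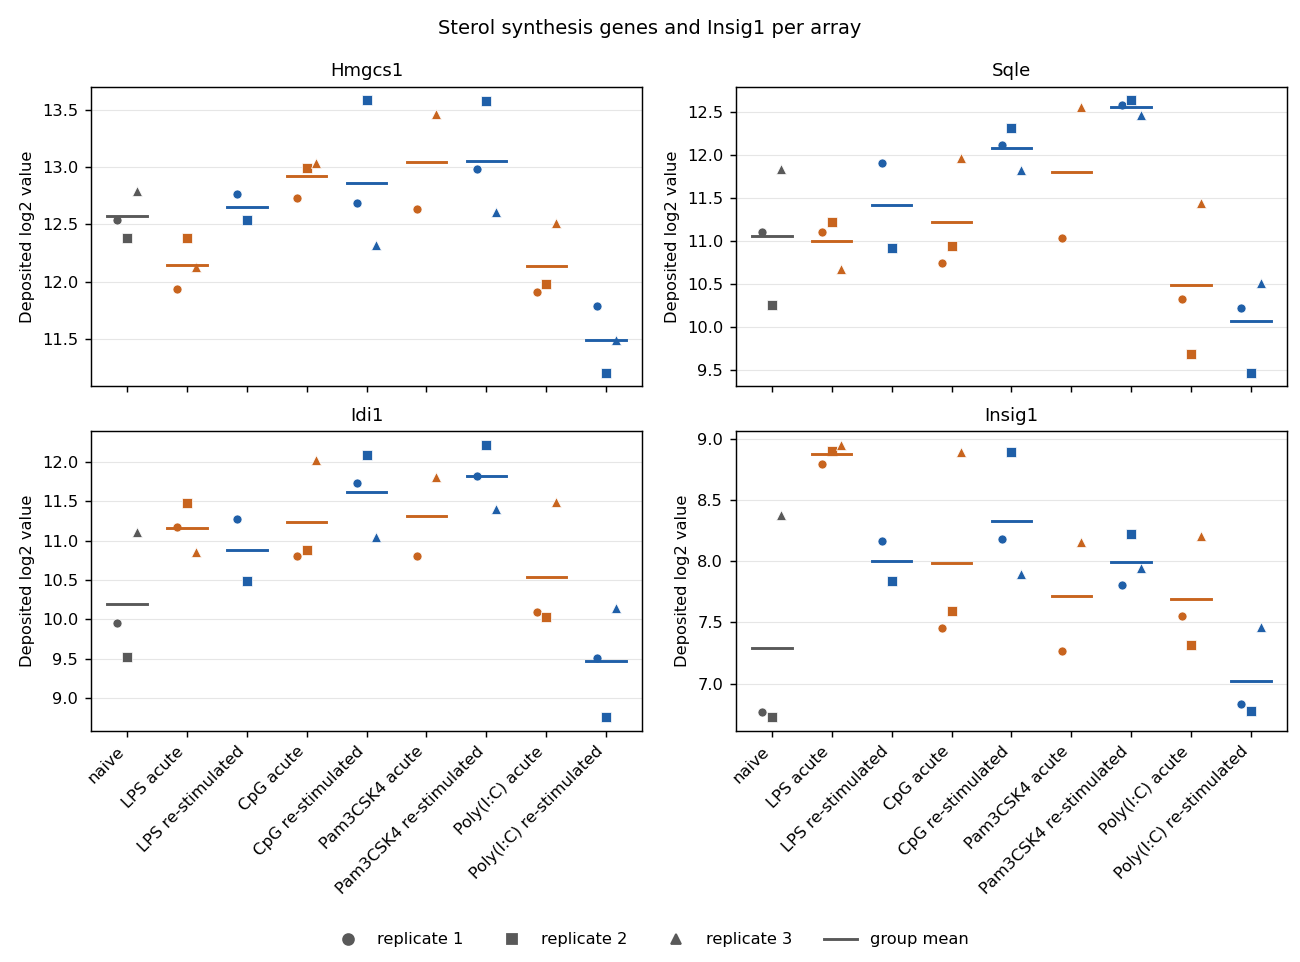
Deposited log2 values of Hmgcs1, Sqle, Idi1 and Insig1 on each array, one panel per gene with its own axis, symbols for replicate numbers and bars for group means. The re-stimulated Poly(I:C) arrays of Hmgcs1, Sqle and Idi1 lie below those of re-stimulated CpG and Pam3CSK4, and the third naive array is the highest naive array in each panel.

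The rest of the pathway gave the setting. All 21 listed sterol synthesis enzymes were tested, the 3 genes above among them. In re-stimulated CpG cells 7 of the 21 rose and 0 fell against naive cells, with a median log2 change of 0.82, where 9.89% of all tested probes were called higher and the median of all was 0.03. In re-stimulated Pam3CSK4 cells 10 rose and 0 fell, with a median of 0.99, where 7.97% of probes were called higher and the median was 0.04. In re-stimulated Poly(I:C) cells 0 rose and 5 fell, with a median of -0.48, where 9.21% of probes were called lower and the median was -0.02, and 0 fell when arrays were scaled to equal medians, which moved the median of all probes by 0.56. In re-stimulated LPS cells 0 rose and 2 fell, with a median of 0.15, where 8.44% of probes were called higher and 7.82% lower. Without naive replicate 3 the counts were 7 higher and 1 lower with CpG, 11 and 0 with Pam3CSK4, 0 and 4 with Poly(I:C), and 2 and 2 with LPS. The higher counts depended on the arrays and the fit. They were 1 with CpG and 2 with Pam3CSK4 without naive replicate 2, 3 and 3 without naive replicate 1, 3 and 1 when each pair of groups was fitted alone, and 0 and 0 when all 27 arrays were normalized together, with medians of 0.79 and 0.96. Over the 36 alternative analyses both counts ran from 0 to 16, and the lower count with Poly(I:C) from 0 to 6. In these groups the macrophage and fibroblast markers moved as given above, and their part was not tested.

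The enzymes that moved span the pathway. Hsd17b7, a sterol 3-ketoreductase, rose by 1.80 with CpG and 2.03 with Pam3CSK4, from a naive mean of 7.46 ± 0.71 (SD, n = 3). Fdps, which makes farnesyl diphosphate, rose by 1.40 with CpG and 1.71 with Pam3CSK4. Fdft1, which makes squalene, rose by 1.19 and 1.36, and Nsdhl, a sterol dehydrogenase, by 1.03 and 1.23. The Fdps call with CpG was made in 18 of 36 alternative analyses and those of Hsd17b7 in 35. With CpG the calls of Fdps, Fdft1 and Nsdhl were lost without naive replicate 2. None of these rises was called with all 27 arrays normalized together. Tm7sf2, a sterol C14-reductase, fell by 1.47 and Dhcr7, which makes cholesterol from 7-dehydrocholesterol, by 1.40 in re-stimulated Poly(I:C) cells. Lbr, the other C14-reductase, fell by 1.00 there. These 3 calls were lost under scaling to equal medians and with all 27 arrays.

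After the first ligand, of the 21 enzymes, 1 rose and 3 fell with acute LPS, 1 rose and 1 fell with CpG, and 0 were called with Pam3CSK4 or Poly(I:C). The shares of all tested probes called higher and lower were 16.7% and 16.5% with LPS and 7.39% and 7.78% with CpG. They were 2.76% and 2.45% with Pam3CSK4 and 7.03% and 6.34% with Poly(I:C). In limma's test without adjustment 5697 and 7974 of all tested probes had p below 0.05 with acute Pam3CSK4 and Poly(I:C). With array weights 10 rose and 2 fell with acute LPS. Dhcr7 fell by 0.85 with acute LPS and by 0.84 with acute CpG, the latter in 17 of 36 alternative analyses. With replicate number as a block, 2 enzymes fell with acute CpG and 1 rose with acute Pam3CSK4. Between acute and re-stimulated cells, 2 enzymes rose and 0 fell with CpG and with Pam3CSK4, where 3.01% and 1.10% of all tested probes were called higher. With LPS 2 rose and 1 fell, beside 15.6% and 14.3%, and with Poly(I:C) 0 rose and 3 fell, beside 6.54% and 5.12%, with medians of -0.08 and -0.31. Mvk and Pmvk, the kinases that act on mevalonate, rose with CpG, by 1.18 and 1.03, and with Pam3CSK4, by 1.03 and 1.13. Under the block 4 enzymes rose with CpG. Over the alternative analyses the count that rose ran from 0 to 9 with CpG and from 0 to 3 with Pam3CSK4, the count that fell with Poly(I:C) from 0 to 4, and the Pam3CSK4 call of Mvk was made in 17 of 36.

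**Figure D3:**
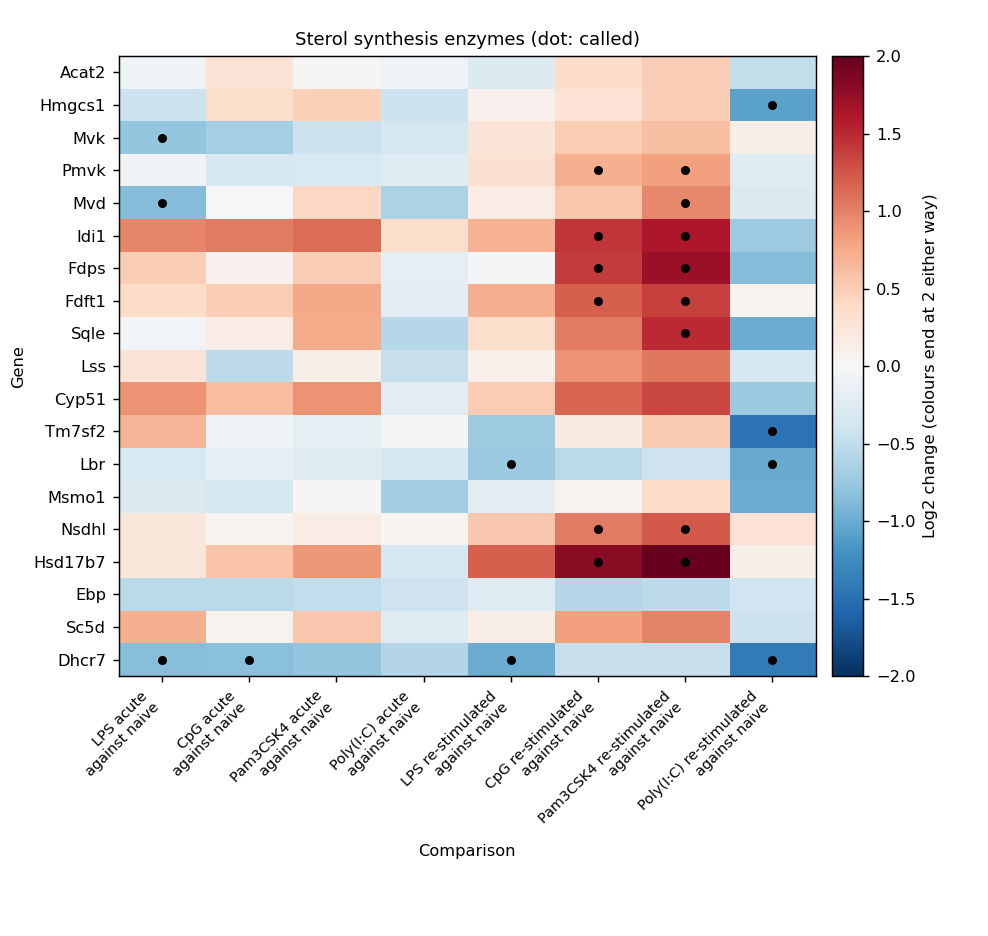
Log2 change of 19 of the sterol synthesis enzymes (rows, in pathway order) against naive cells for 4 acute and 4 re-stimulated groups (columns), with red for higher, blue for lower and a dot where the change was called. Dots in the re-stimulated CpG and Pam3CSK4 columns are all on red cells, 6 and 8 of them, and the 4 dots of re-stimulated Poly(I:C), of which 0 remain called under scaling to equal medians, are all on blue cells.

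Insig1 encodes the sterol-sensitive anchor of the SREBP precursor. Its values were 6.76, 6.72 and 8.38 in naive cells and 8.79, 8.90 and 8.95 after acute LPS. All acute LPS arrays lay above the naive arrays, and Insig1 rose 3.02-fold (log2 change 1.59, SE 0.429, adjusted p = 0.00706), a call made in 36 of 36 alternative analyses. These are the arrays with slides of their own, a low summed level of neutrophil markers and a high level of Zbtb46. Of the other dendritic cell markers, Flt3 was not called there and Xcr1 was well above background on 0 arrays. In re-stimulated LPS cells Insig1 read 8.17 and 7.84, both below acute LPS, and the change of -0.88 was not called (adjusted p = 0.18). In re-stimulated CpG cells it read 8.18, 8.90 and 7.90, a change of 1.04 that was not called without a block (adjusted p = 0.094). With replicate number as a block its adjusted p was 0.0439. Under scaling to equal medians the change was 1.89 with an adjusted p of 0.0024, but that scaling also raised the median of all probes, as given with Hmgcs1. Without naive replicate 3 the change was 1.58 with an adjusted p of 0.0088. Without that array Insig1 was also called higher with acute CpG (1.24, adjusted p = 0.0406) and re-stimulated Pam3CSK4 (1.25, adjusted p = 0.0364), and higher in re-stimulated CpG than in re-stimulated Poly(I:C) cells (1.30, adjusted p = 0.0288 against 0.0755 with that array).

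Srebf2 was measured by 2 probes of the same transcript record, and they moved in opposite directions. The brighter probe lies at chr15:82030068-82030127 and the dimmer one at chr15:82034765-82034824 in the array's mm9 coordinates, both well above background on all 25 arrays. By the brighter probe the values were 13.26, 12.96 and 12.52 in naive cells, 11.55, 11.66 and 12.01 in re-stimulated CpG cells, and 11.72, 11.57 and 12.00 in re-stimulated Pam3CSK4 cells. By the dimmer probe they were 8.37, 8.72 and 9.44 in naive cells, 10.04, 10.79 and 9.67 with CpG, and 9.84, 10.67 and 9.78 with Pam3CSK4. Neither probe's groups overlapped, and the direction was opposite.

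The brighter Srebf2 probe fell against naive cells by 1.18 with re-stimulated CpG (SE 0.204, adjusted p = 0.000573) and by 1.15 with Pam3CSK4 (SE 0.204, adjusted p = 0.000857). The dimmer probe rose by 1.33 with CpG (SE 0.313, adjusted p = 0.00573) and by 1.25 with Pam3CSK4 (SE 0.313, adjusted p = 0.0102). Against acute cells the brighter probe fell by 0.88 with CpG (adjusted p = 0.0165) and 1.05 with Pam3CSK4 (adjusted p = 0.0203), and the dimmer probe differed by 0.30 and 0.12, neither called. The CpG call against acute cells was lost without replicate 1 or 2 of either group, and the Pam3CSK4 call without the first acute or the first or second re-stimulated array. The falls of the brighter probe were also lost under scaling to equal medians, where its change with re-stimulated CpG was 0.03 beside a median of 0.77 over all probes. The dimmer probe also rose with acute CpG, by 1.03 (adjusted p = 0.0311), and was higher in re-stimulated CpG and Pam3CSK4 cells than in re-stimulated Poly(I:C) cells by 1.24 and 1.17. Without naive replicate 3 the brighter probe of Srebf2 was also called lower in re-stimulated LPS (-0.86, adjusted p = 0.0151) and Poly(I:C) cells (-0.72, adjusted p = 0.0207) than in naive cells, where it was not called with that array (-0.66, adjusted p = 0.0552, and -0.52, adjusted p = 0.0831). It was then called lower in re-stimulated CpG and Pam3CSK4 than in re-stimulated Poly(I:C) cells as well, with adjusted p of 0.0331 and 0.0311. The mean of both probes changed by 0.08 with CpG and 0.05 with Pam3CSK4 against naive cells. No direction is therefore given for Srebf2 as a gene. Over the 25 arrays the probes had r = -0.62 with each other. The dimmer probe had r = 0.85 with Idi1 and 0.76 with Hmgcs1, and the brighter one r = -0.55 and -0.32. These correlations are descriptive, were looked at after the values were seen, and rest on arrays that share slides and groups.

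The SREBP machinery and sterol uptake list held 12 genes, all tested. With acute LPS 4 rose and 1 fell, beside 16.7% and 16.5% of tested probes. Among the 4 were Insig1 and Rnf139, an endoplasmic reticulum ubiquitin ligase, which rose by 1.70. Mbtps1, the site-1 protease that cuts SREBP, fell by 0.79, a call lost under scaling to equal medians. Rnf139 rose with acute Poly(I:C) too, by 1.46. In re-stimulated CpG cells 2 of the 12 rose and 2 fell against naive cells, beside 9.89% and 9.40% of tested probes. With replicate number as a block 4 rose and 2 fell. The other re-stimulated groups gave 1 higher and 2 lower with LPS (8.44% and 7.82% of probes) and 2 and 1 with Pam3CSK4 (7.97% and 7.98%). Poly(I:C) gave 0 and 2 (9.45% and 9.21%). Under scaling to equal medians 8 of the 12 were called higher with re-stimulated CpG and 0 lower. That scaling also raised the median of all probes, so this count is not read as a result about the list.

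Abcg1 passes cholesterol to high-density lipoprotein. Its values were 14.17, 14.24 and 13.68 in naive cells, 12.28 and 13.00 in re-stimulated LPS cells, 12.88, 13.07 and 12.54 with CpG, and 11.45, 12.98 and 12.86 with Pam3CSK4. All 8 of these re-stimulated arrays lay below the naive arrays, whereas re-stimulated Poly(I:C) cells, at 13.80, 14.31 and 13.30, overlapped them. Abcg1 fell 2.61-fold with LPS (log2 change -1.39, SE 0.439, adjusted p = 0.0363), 2.29-fold with CpG (-1.20, SE 0.393, adjusted p = 0.0375) and 3.03-fold with Pam3CSK4 (-1.60, SE 0.393, adjusted p = 0.00932). The LPS and CpG calls were lost without naive replicate 1 or 2 or any one of their own re-stimulated arrays. The Pam3CSK4 call was lost without Pam3CSK4 replicate 1. Each of these calls was also lost under scaling to equal medians and when the arrays without deposited values were normalized with the others. Those with LPS and CpG were lost with the processed signal and with no detection filter too. Those with LPS and Pam3CSK4 were lost when each pair of groups was fitted alone. The Abcg1 differences from naive cells with re-stimulated LPS, CpG and Pam3CSK4 each had the same sign on every shared slide. Under scaling of arrays to equal medians, which moved the median of all probes by 0.77 with CpG, the Abcg1 change with CpG was 0.10 and was below that median.

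Abcg1 was not called against naive cells after the first dose of any ligand. Acute CpG cells read 13.46, 12.93 and 12.49 and acute Pam3CSK4 cells 13.13 and 12.83, all below the naive arrays. The changes were -1.07 (adjusted p = 0.073) and -1.04 (adjusted p = 0.20), and with replicate number as a block the CpG change was called (adjusted p = 0.0339), whereas the Pam3CSK4 change was called in 0 of 36 alternative analyses. Acute LPS cells read 14.23, 14.18 and 13.04, a change of -0.21, and the fall from acute to re-stimulated LPS cells was 1.18 (SE 0.439, adjusted p = 0.0480). That call held in 16 of 36 alternative analyses and was lost without any one of 16 arrays. Re-stimulated Pam3CSK4 cells had less Abcg1 than re-stimulated Poly(I:C) cells by a log2 difference of -1.38 (SE 0.393, adjusted p = 0.0301). This call was lost without Pam3CSK4 replicate 1 or Poly(I:C) replicate 1 or 2. It was also lost under scaling to equal medians, with the processed signal, with no detection filter and when the pair was fitted alone. Normalizing the arrays without deposited values with the others removed it too.

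Abca1, which loads cholesterol onto apolipoprotein A-I, was called in none of the 21 comparisons by limma's test. Its naive values were 12.28, 12.03 and 11.28, and over all 25 arrays it ranged from 11.13 to 12.88. The changes against naive cells ran from -0.21 with re-stimulated Poly(I:C) to 0.39 with re-stimulated LPS. The third array of each acute group was its lowest. A p-value over the threshold does not show that Abca1 was unchanged.

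**Figure D4:**
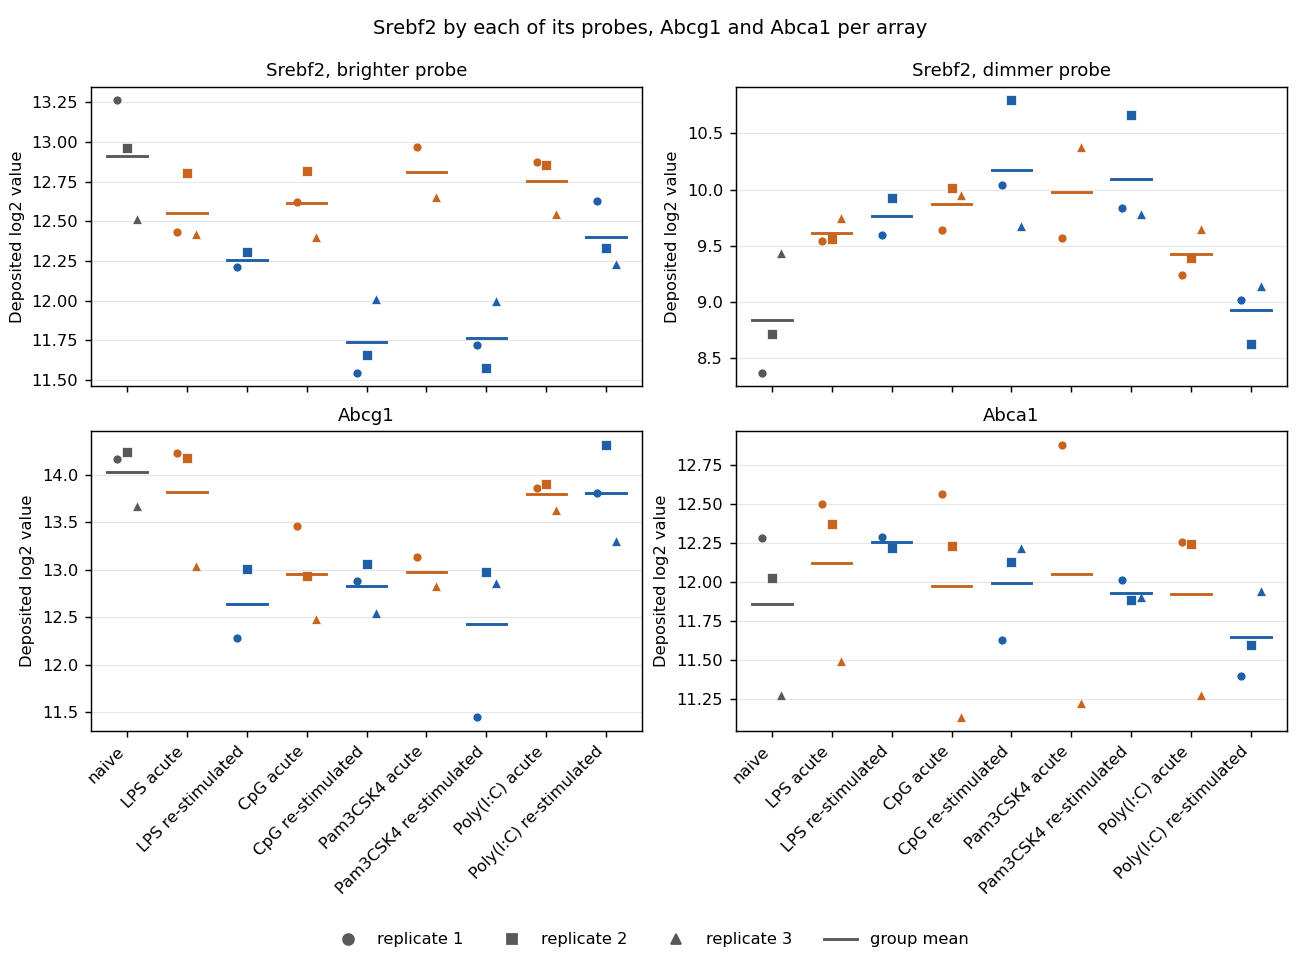
Deposited log2 values of Srebf2 by each of its probes, Abcg1 and Abca1 on each array, with symbols for replicate numbers, bars for group means and an axis of its own for each panel. The group means of the brighter Srebf2 probe are lowest and those of the dimmer one highest in re-stimulated CpG and Pam3CSK4 cells, and Abcg1 of re-stimulated LPS, CpG and Pam3CSK4 cells lies below the naive arrays.

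The wider list of LXR, efflux and esterification genes held 15 genes, all tested. Re-stimulated against naive cells, 0 rose and 5 fell with LPS, 1 rose and 7 fell with CpG, 0 rose and 7 fell with Pam3CSK4, and 1 rose and 5 fell with Poly(I:C). The medians were -0.60, -0.52, -0.43 and -0.40, and 7.82%, 9.40%, 7.98% and 9.21% of tested probes were called lower. The same 4 genes fell in every re-stimulated group: Lipa, the lysosomal lipase that frees cholesterol from its esters, Nceh1, a neutral cholesterol ester hydrolase, Soat1, which esterifies cholesterol, and Apoe, an acceptor of effluxed cholesterol. Lipa fell by 1.57 with LPS, 2.25 with CpG, 1.75 with Pam3CSK4 and 1.74 with Poly(I:C), from a naive mean of 15.27 ± 0.18 (SD, n = 3). Nceh1 fell by 1.64, 2.07, 2.05 and 1.82 in the same order, and Soat1 by 0.71, 0.97, 1.08 and 1.25. Apoe fell by 1.11, 1.34, 1.38 and 1.11. For each of these 4 genes the re-stimulated and naive arrays did not overlap. They were named because they were called in all 4 groups, so this adds no support to their calls. The 4 comparisons share the naive arrays, and the share of all probes called lower in all 4 is not given.

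Within that list, Nr1h3, which encodes LXR alpha, rose by 2.34 in re-stimulated Poly(I:C) cells (SE 0.58, adjusted p = 0.0076), from a naive mean of 11.34 ± 1.59 (SD, n = 3). Mylip, an LXR target, fell by 1.83 with re-stimulated CpG and 1.58 with Pam3CSK4. Scarb1, a receptor for high-density lipoprotein, fell by 1.21 with re-stimulated Poly(I:C). After acute ligands Nceh1 and Rxrb, an LXR partner, fell with all 4, Nceh1 by 0.95 with Poly(I:C) to 1.78 with LPS and Rxrb by 0.91 to 1.68 with the same ligands, and no gene of the list was called lower with any acute ligand under scaling to equal medians. Scaling arrays to equal medians, with the shifts of 0.38, 0.77, 0.45 and 0.56 in the median of all probes for LPS, CpG, Pam3CSK4 and Poly(I:C), left 0 lower calls in all 4 re-stimulated groups, and 1, 4, 1 and 2 genes were called higher. The list medians then were -0.19, 0.28, 0.05 and 0.14, all below the median of all probes. Under the same scaling 16 sterol synthesis enzymes were called higher with re-stimulated CpG, 13 with Pam3CSK4 and 0 with Poly(I:C). With Poly(I:C) 0 were called lower, and the medians were 1.84, 1.54 and 0.03. The shifts of 0.77, 0.45 and 0.56 in the median of all probes apply here too. The share of all probes called under this scaling is not given, so no count under it is set against a background. The falls in these lists are given relative to the other probes of an array. Changes of single genes under that scaling are not given here, so the lost calls do not show that single falls went away.

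**Figure D5:**
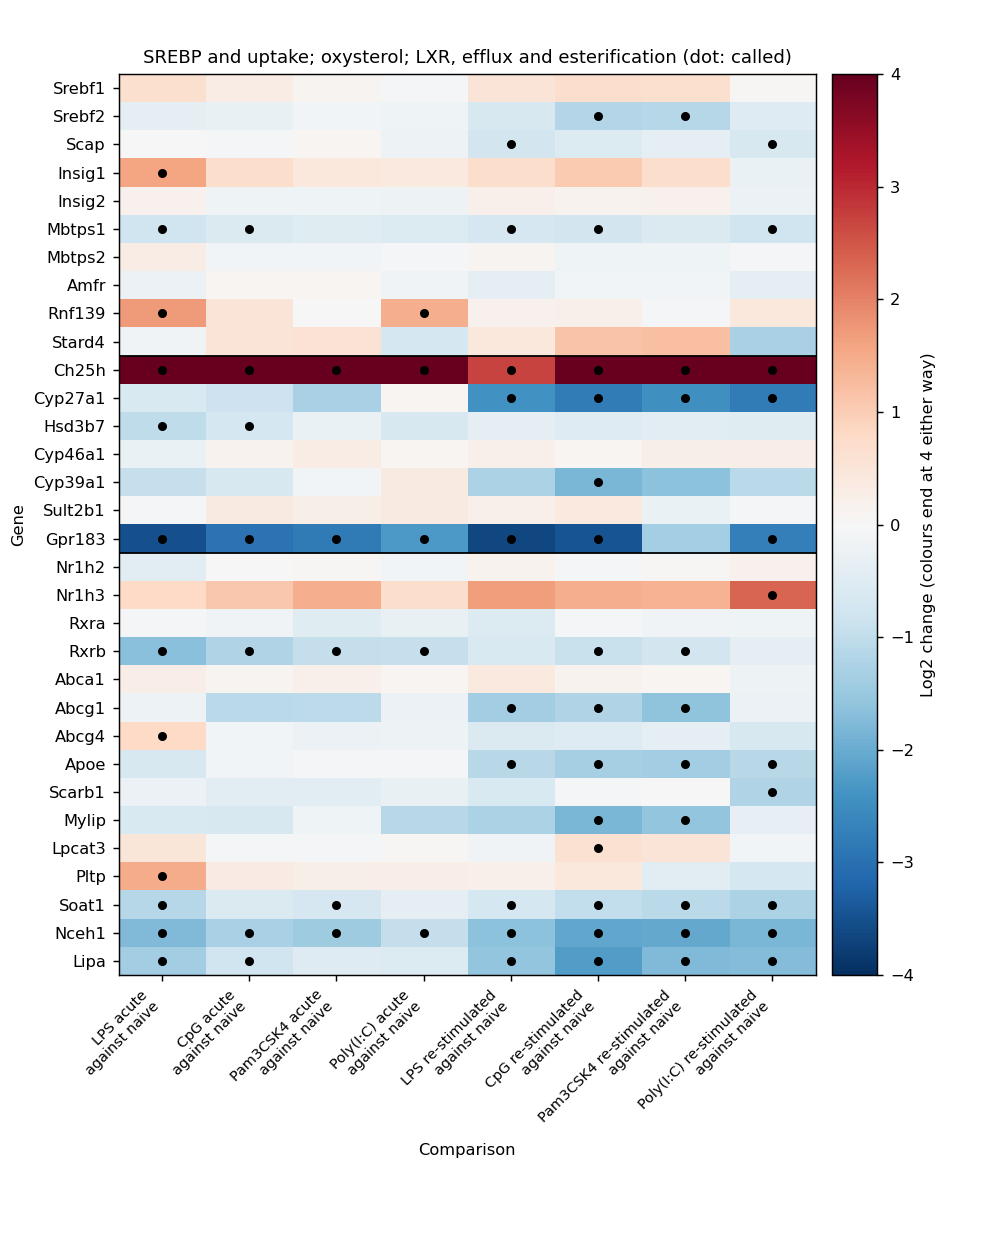
Log2 change against naive cells of genes of the SREBP and uptake list (top), the oxysterol list (middle) and the LXR, efflux and esterification list (bottom), for 4 acute and 4 re-stimulated groups, with red for higher, blue for lower and a dot where the change was called. Ch25h is red and called in all 8 columns, Gpr183 is blue throughout, and Soat1, Nceh1, Lipa and Apoe are called lower in all 4 re-stimulated columns, calls that scaling to equal medians did not keep.

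For each member, the 3 genes with the highest Pearson r over the 25 arrays were also taken. Those of Idi1 included Cyp51 (r = 0.97) and Fdps (r = 0.91), and those of Sqle were Msmo1 (r = 0.93, under its older array name), Fdps (r = 0.93) and Hsd17b7 (r = 0.91), all enzymes of the same pathway. The closest gene to Hmgcs1 was Stard4 (r = 0.89), a sterol carrier. Ch25h was closest to Xkr8 (r = 0.88) and Marcksl1 (r = 0.88), Insig1 to A630001G21Rik (r = 0.91), the brighter Srebf2 probe to Hmga2 (r = 0.95), Abcg1 to Acss1 (r = 0.85) and Abca1 to Fam20a (r = 0.75). Among the 8 genes themselves, r was 0.89 between Sqle and Idi1, 0.81 between Hmgcs1 and Sqle and -0.68 between Sqle and Abcg1. These values describe arrays that share conditions and slides.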

How the data were processed

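The 27 samples were hybridized to 1-color Agilent arrays of 62976 spots. The submitters' processing notes name limma and RMA. The deposited log2 values were made by the authors with RMA background correction and quantile normalization across 25 arrays, with no values for the third re-stimulated LPS array and the second acute Pam3CSK4 array, on which 92.4% and 99.9% of probes were well above background. The deposited scanner intensity values served to check that table (lowest r per array 0.999973, median absolute difference 0.0355) and for alternatives; intensity has no read depth, and the number of arrays limits precision.

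All 9 groups entered 1 limma fit (version 3.58.1, R 4.3.3) with Benjamini-Hochberg adjustment over 30814 probes, those that 2 or more arrays of some group measured well above background, and 21 comparisons were made. Repeated spots of a probe were averaged, and the brightest probe stood for a gene. The fit was tested on simulated data, and no outcome of that test is given here. The genes and lists were chosen with earlier results of these data known. Some listed genes are not reported here, although the list counts hold them. Named were the 8 genes, listed genes called against naive cells, and the 3 most alike genes by r. On the array Msmo1 is Sc4mol and Adgre1 is Emr1. Alternatives were background correction, scaling, filter, probe choice, pairwise fits, array weights, blocks, all 27 arrays and leaving out each array. Probe coordinates are those of the array (mm9); no gene model of that build was used. Promoters are from RefSeq (GRCm38.p6), with 6 of 8 genes matched.

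Same-numbered samples shared a slide, except acute LPS, and deviated together in the CpG, Pam3CSK4 and Poly(I:C) comparisons (r from 0.104 to 0.524). In the LPS comparisons r was lower, from 0.0103 to 0.0951. It was 0.0805 and 0.0830 between re-stimulated LPS and naive arrays, although these shared slides. No clear gap separates the r values, and the main fit used no pairing.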

Additional observations from a re-analysis of the deposited data

Results flagged for a closer look

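The re-stimulated ligand groups differed from each other in 9 of 48 tests on the 8 genes, each a limma comparison of the groups themselves with 2 or 3 arrays a group. Against re-stimulated Poly(I:C), the log2 difference was 2.01 for Sqle, 2.15 for Idi1 and 1.37 for Hmgcs1 with CpG. With Pam3CSK4 it was 2.49 for Sqle, 2.35 for Idi1, 1.56 for Hmgcs1, -3.02 for Ch25h and -1.38 for Abcg1. With LPS it was -4.59 for Ch25h.

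The third re-stimulated LPS array has no deposited values and entered the comparisons above only where all 27 arrays were normalized together. There its log2 value was 12.06 for Ch25h, against 7.99 on the highest naive array and 11.84 to 12.92 on the acute LPS arrays. It was 9.32 for Insig1, against 8.53, and 11.88 for Sqle, against 11.86. On this array 92.4% of probes were well above background, and the part of that share in these values was not tested.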

How the results depend on the processing

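Over the single genes, comparisons and alternatives, 5821 values kept their side of the threshold. Of the others, 67 became called, 156 lost their call and 4 were counted as reversed. A value that was not called could change sign and still stay among the 5821. The Hmgcs1 change from acute to re-stimulated CpG, for example, kept its sign in 31 of 36 alternatives. The larger moves in the counts of the 8 genes called were as follows. With all 27 arrays, acute Pam3CSK4 went from 1 to 0; re-stimulated against acute from 2 to 0 (LPS), 1 to 0 (CpG) and 1 to 0 (Pam3CSK4); re-stimulated against naive from 2 to 0 (LPS), 2 to 1 (Poly(I:C)), 5 to 1 (Pam3CSK4) and 4 to 1 (CpG); and pairs of re-stimulated ligands from 9 to 1. With array weights, acute CpG went from 1 to 4, acute Pam3CSK4 from 1 to 2, re-stimulated LPS against naive from 2 to 5, acute pairs from 0 to 2 and re-stimulated pairs from 9 to 19, with smaller gains in acute LPS (2 to 3), re-stimulated against acute LPS (2 to 3), and re-stimulated CpG (4 to 6) and Pam3CSK4 (5 to 6) against naive. With the mean of a gene's probes, re-stimulated against acute CpG and Pam3CSK4 each went from 1 to 0 and re-stimulated Poly(I:C) against naive from 2 to 1. With scaling to equal medians, acute CpG went from 1 to 2, re-stimulated against acute from 2 to 1 (LPS) and 1 to 0 (CpG and Pam3CSK4), and re-stimulated against naive from 2 to 1 (LPS), 5 to 3 (Pam3CSK4) and 2 to 1 (Poly(I:C)). With no detection filter, re-stimulated against acute went from 2 to 1 (LPS) and 1 to 0 (Pam3CSK4), and against naive from 2 to 0 (LPS) and 4 to 2 (CpG). With pairwise fits, acute Pam3CSK4 went from 1 to 0, re-stimulated against acute from 1 to 0 (CpG and Pam3CSK4), against naive from 2 to 0 (LPS) and 5 to 1 (Pam3CSK4), and re-stimulated pairs from 9 to 5. With the processed signal, re-stimulated against naive went from 2 to 0 (LPS) and 2 to 1 (Poly(I:C)). The causes were not tested.

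With replicate number as a block, and with slide as a random block, acute CpG went from 1 to 2. The replicate block also moved re-stimulated pairs from 9 to 12. It added calls for Insig1 and Srebf2 between re-stimulated CpG and Poly(I:C) and for Srebf2 between Pam3CSK4 and Poly(I:C). Srebf2 was also called in re-stimulated LPS against naive, where r between same-numbered arrays was low. Beside Abcg1 and Insig1 above, the replicate block changed no other call.

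Leaving out each array, acute counts ran from 2 to 3 for LPS and from 1 to 2 for CpG. Those of acute Pam3CSK4 ran from 0 to 1, and Poly(I:C) stayed at 1. Re-stimulated against acute they ran from 0 to 2 (LPS; 0 without LPS re-stimulated replicate 2), 0 to 1 (CpG and Pam3CSK4), and stayed at 0 for Poly(I:C). Against naive they ran from 0 to 3 (LPS; 0 without naive replicate 1 or 2), while CpG gave 2 to 5, Pam3CSK4 2 to 6, and Poly(I:C) 1 to 2. Pairs ran from 0 to 1 (acute) and 4 to 12 (re-stimulated; 4 without Poly(I:C) re-stimulated replicate 1). Under scaling to equal medians the change of re-stimulated CpG against naive was 0.10 for Abcg1 and 0.0346 for Srebf2. With the mean of its probes, Srebf2 differed from naive by 0.0752 with CpG and 0.0510 with Pam3CSK4.

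Counts of listed genes moved too. Beside the counts above, the lower calls of the oxysterol list ran from 0 to 3 in re-stimulated Pam3CSK4 and from 0 to 2 in re-stimulated LPS against naive cells, and those of the LXR, efflux and esterification list from 0 to 8 (LPS), 0 to 7 (CpG and Pam3CSK4) and 0 to 6 (Poly(I:C)).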
